A study of Mus musculus with 4 samples.

Results

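The 10 genes described here act in fatty acid synthesis, elongation and desaturation (Acss2, Acaca, Acacb, Me1, Thrsp, Elovl6, Scd1, Fads2, Elovl5 and Fads1). They were chosen by symbol out of the 24346 symbols listed for each library. All 10 were found and all 10 were above 1 FPKM in every library, so that none was lost to a filter on low values. RNA sequencing covered the liver of male ob/ob mice, an obese strain without functional leptin, which were 6 weeks old when 4 weeks of feeding began. The CD group received a chow diet with 10% sucrose and 5% corn oil, and the WD group a western type diet with 34% sucrose and 20% cocoa butter. The CD+7KC and WD+7KC groups received the same diets with 0.01% 7-ketocholesterol (7KC), an oxidation product of cholesterol. Every diet, those without 7KC included, contained 1% cholesterol. Each group had 1 library, and the sources used here do not say how many mice stood behind it. No difference below therefore has a replicate check, no p-value is given, and a change is described by its size beside that of all genes. No lean mouse and no diet without added cholesterol was analysed here.

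De novo lipogenesis builds fatty acids from carbohydrate carbon. Acetyl-CoA is carboxylated to malonyl-CoA, fatty acid synthase uses malonyl-CoA and NADPH to make palmitate, and palmitate is lengthened by elongases and given double bonds by desaturases. In liver the pathway is known for its induction by insulin through the transcription factor SREBP-1c, by glucose through ChREBP and by oxysterols through the nuclear receptor LXR, and for its repression by dietary polyunsaturated fat. Scd1 and Elovl6 act on the saturated and monounsaturated products of synthesis, while Fads2, Elovl5 and Fads1 turn essential fatty acids of the diet into long polyunsaturated fatty acids.

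The values are FPKM, read counts scaled to transcript length and to the depth of the library. Levels of different genes can be set side by side in this unit, with the reserve that the transcript models behind the lengths are not given in the sources used here. The libraries held an estimated 9380000 (WD) to 12040000 (WD+7KC) mapped fragments, judged from the spacing of low FPKM values. On that basis 919 (Acss2 in WD) to 662138 (Scd1 in CD) reads stood behind a value of the 10 genes. The 95% intervals given for log2 fold changes (exact, Clopper-Pearson) cover this counting error only and none of the variation between mice, and amplified reads are not independent molecules. Log2 fold changes are those of FPKM + 0.1, and a gene was counted as past the fold when its level differed by more than 2-fold. All 8 hepatocyte markers were present in every library, with a summed level of 73945 (WD+7KC) to 101613 (CD) FPKM. The fat cell genes Plin1 and Lep were listed at 0 in all libraries, so that Lep, the gene mutated in ob/ob mice, gave no check of the genotype.

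The FPKM values of all genes summed to 602059 in WD+7KC and to 696062 or more in the other libraries. With the deposited values, the median change of all genes lay between -0.0012 and 0.0097 on the log2 scale in the 4 comparisons. After the libraries were brought to equal sums (TPM) it was 0.21 for WD+7KC against WD and 0.20 for WD+7KC against CD+7KC. The genes past 2-fold were then 1370 higher and 347 lower in place of 978 and 440 in the former, and 1751 higher and 583 lower in place of 1274 and 733 in the latter. The sign of a small change that involves the WD+7KC library therefore depends on the scaling, and where it did so this is said.

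Scd1 (chromosome 19, 44394455 to 44407879, GRCm38, minus strand), the stearoyl-CoA desaturase that makes oleate and palmitoleate from saturated fatty acids, had by far the highest level of the 10 genes. It was at 13067 FPKM without and 11776 FPKM with 7KC on CD, and 9219.9 and 8275 FPKM on WD. Its rank among all genes was 6 in the CD, CD+7KC and WD libraries and 7 in the WD+7KC library. It made up 1.32% (WD) to 1.83% (CD) of a library's summed FPKM. The other 9 genes spread over a wide range below it. In both CD libraries the order from high to low was Thrsp, Elovl5, Fads2, Me1, Elovl6, Fads1, Acss2, Acaca and Acacb, from 928 FPKM for Thrsp to 16.2 FPKM for Acacb in the library without 7KC. In WD+7KC it was Fads2, Elovl5, Thrsp, Fads1, Me1, Elovl6, Acss2, Acaca and Acacb, so that Fads2 stood above Thrsp and Fads1 above Me1 and Elovl6. In WD, Fads2 at 410.3 FPKM and Thrsp at 409.7 FPKM were neighbours that could not be ranked.

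**Figure D1:**
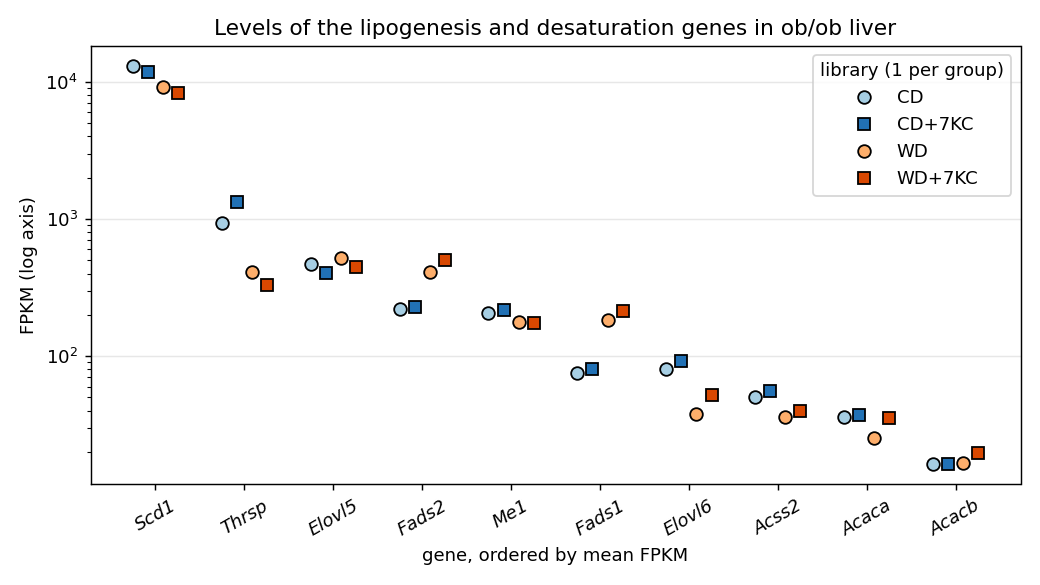
FPKM (log axis) of each of the 10 genes in the 4 libraries, 1 point per library, with genes ordered by their mean. Scd1 stands above all others at 8275 to 13067 FPKM, Thrsp is lower and Fads1 and Fads2 are higher in both WD libraries than in both CD libraries.

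The first comparison asks how the western type diet differed from the chow diet. Of the 10 genes, 4 were higher and 6 lower in WD than in CD, and their median log2 fold change was -0.34, against 0.0097 for all genes. Past 2-fold were 3 genes. Fads1 was the 1 higher gene, where 5.31% of all 15597 genes tested were past 2-fold upward, and Elovl6 and Thrsp were the 2 lower genes, where 4.38% were past it downward. In either direction 9.69% of all genes, and 5.54% of those reaching 1 FPKM, were past 2-fold. With 7KC in both diets, 4 genes were higher and 6 lower, and the median was -0.19 against 0.0026 for all genes, or 0.021 against 0.20 under equal sums. Fads1 and Fads2 were past 2-fold upward, where 8.01% of all genes were, and Thrsp downward, where 4.61% were. In either direction 12.6% of all genes, and 9.37% of those reaching 1 FPKM, were past it. At 1.5-fold the count was 4 of 10 (Fads1 and Fads2 higher, Thrsp and Elovl6 lower) in both comparisons, against 24.2% of all genes without and 28.9% with 7KC. The comparisons without and with 7KC share no library. Bulk tissue cannot tell fewer cells of a type from less RNA per cell.

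The members with the widest spread were Thrsp, Fads1, Elovl6 and Fads2. For 3 of them RefSeq gives a window before the start site, printed here in GRCm38.p6 because these genes mark the opposite ends of the difference between the diets. Each line holds the 250 bases before the RefSeq start site, 5′ to 3′ on the strand of the gene. Capitals mark a CCAAT box (CCAAT, or ATTGG on the other strand) or a GC box (GGGCGG, or CCGCCC on the other strand). The gene positions given below are those of GENCODE and start further upstream, so that each printed stretch overlaps its gene. Nearly all of the Fads2 stretch (gene end 10101746) and most of the Thrsp stretch (gene end 97417730) lie inside the gene, their marked boxes included.
Thrsp, chr7:97417551-97417800, minus strand: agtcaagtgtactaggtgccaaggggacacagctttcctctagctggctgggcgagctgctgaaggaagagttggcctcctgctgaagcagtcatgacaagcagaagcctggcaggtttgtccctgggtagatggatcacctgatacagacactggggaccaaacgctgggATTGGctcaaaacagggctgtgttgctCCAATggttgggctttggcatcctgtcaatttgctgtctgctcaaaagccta
Elovl6, chr3:129532136-129532385, plus strand: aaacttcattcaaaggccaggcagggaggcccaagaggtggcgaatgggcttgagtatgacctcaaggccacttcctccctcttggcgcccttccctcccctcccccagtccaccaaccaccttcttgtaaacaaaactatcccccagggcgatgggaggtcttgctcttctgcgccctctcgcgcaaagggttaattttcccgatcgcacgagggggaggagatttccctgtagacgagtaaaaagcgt
Fads2, chr19:10101504-10101753, minus strand: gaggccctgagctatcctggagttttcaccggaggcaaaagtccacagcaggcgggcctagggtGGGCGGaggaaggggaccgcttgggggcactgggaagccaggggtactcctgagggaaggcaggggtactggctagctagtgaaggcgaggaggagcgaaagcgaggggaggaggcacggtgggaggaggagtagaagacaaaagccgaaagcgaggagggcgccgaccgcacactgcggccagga
The search covered 9 windows of 8 members, from 250 bases before to 50 bases after the start site, on both strands. Scd1 and Fads1 had no entry. The windows of Acaca (from 84195188) and Acacb (from 114165268) and 1 Me1 window (from 86687228) lay wholly inside the gene positions given below. For Acaca and Acacb no window at the outermost start of the gene was thus searched. A CCAAT box lay in 5 of the 9 windows (those of Acacb, Acss2, Elovl5, Thrsp and 1 of the Me1 windows) and in 37.4% of all 32851 windows. A GC box lay in 3 (Acss2, Fads2 and the other Me1 window) and in 35.7% of all windows. The E-box CACGTG lay in the Elovl5 window alone and in 7.15% of all windows. Among the 10489 windows of genes with a mean of 1 FPKM or more, the shares were 37.6% (CCAAT box), 61.9% (GC box) and 10.3% (E-box). The sterol element TCACNCCAC, present in 1.24% of all windows, and the DR4 repeat known as an LXR element, present in 0.0152%, were in none of the 9. No match of one motif overlapped a match of another in the printed windows, and a match is a description of the letters only.

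Thrsp (chromosome 7, 97412938 to 97417730, minus strand) encodes Spot 14, a thyroid hormone and carbohydrate responsive protein that promotes lipogenesis. It was at 928 FPKM without and 1323 FPKM with 7KC on CD, and 409.7 and 328 FPKM on WD. Both CD libraries were above both WD libraries, and the highest and lowest of the libraries differed by 4.04-fold, the widest range among the 10 genes. Thrsp was 2.27-fold lower in WD than in CD (log2 fold change and 95% counting interval -1.18, -1.23 to -1.13). With 7KC in both diets it was 4.04-fold lower (-2.01, -2.06 to -1.96). The 8 genes of the fat cell marker list had a summed level of 3777 FPKM without and 3233 FPKM with 7KC on CD, and 1302 and 927 FPKM on WD. Most of that sum was Car3, an enzyme that hepatocytes also express, at 3466 FPKM without and 3096 FPKM with 7KC on CD, and 1189.8 and 778 FPKM on WD. Cfd, which encodes adipsin, was at 219.99 FPKM without and 63.2 FPKM with 7KC on CD, and 1.47 and 0.115 FPKM on WD. Plin1 and Lep were at 0 throughout, and Adipoq and Retn were at 0 in both WD libraries. On CD these 2 were low as well. Adipoq was at 0.088 FPKM in either CD library (an estimated 1 read each). Retn was at 1.21 FPKM without and 0.241 FPKM with 7KC on CD (an estimated 12 and 2 reads). Fabp4 went the other way, at 83.5 FPKM without and 66.5 FPKM with 7KC on CD, and 104 and 143 FPKM on WD, and Lipe was at 5.97 to 6.86 FPKM in the 4 libraries. Of the 6 genes of the list above 0, 4 were lower and 2 higher in WD than in CD, and 5 were lower and 1 higher with 7KC in both diets (4 and 2 under equal sums). Of all genes, 7650 were lower and 7946 higher in WD than in CD. With 7KC in both diets 7910 were lower and 7988 higher (5023 and 10875 under equal sums). The part of these genes in the Thrsp difference was not tested.

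Elovl6 (chromosome 3, 129532355 to 129638495, plus strand) encodes the elongase that turns palmitate into stearate. It was at 81.2 FPKM without and 91.6 FPKM with 7KC on CD, and 37.8 and 51.6 FPKM on WD. As for Thrsp, both WD libraries lay below both CD libraries. Elovl6 was 2.15-fold lower in WD than in CD (-1.10, -1.18 to -1.03) and 1.77-fold lower with 7KC in both diets (-0.83, -0.89 to -0.77). The latter was under 2-fold.

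The desaturases of polyunsaturated fatty acids lay on the other side. Fads2 (chromosome 19, 10062765 to 10101746, minus strand) encodes the desaturase that opens the pathway from linoleic and linolenic acid, and Fads1 (chromosome 19, 10182888 to 10196877, plus strand) the one that acts after elongation. The genes are neighbours, with 81.1 kb between their start sides. Fads1 was at 75.5 FPKM without and 80.2 FPKM with 7KC on CD, and 184 and 212 FPKM on WD. Fads2 was at 220.1 FPKM without and 229 FPKM with 7KC on CD, and 410.3 and 506 FPKM on WD. For either gene both WD libraries were above both CD libraries. Fads1 was 2.43-fold higher in WD than in CD (1.28, 1.22 to 1.35) and 2.64-fold higher with 7KC in both diets (1.40, 1.34 to 1.46). For Fads2 the log2 fold changes were 0.90 (0.86 to 0.94) and 1.14 (1.10 to 1.18), the former 1.86-fold.

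Ratios of genes within a library do not depend on library scaling. Fads1 was at 0.930 times the level of Elovl6 in CD and 0.875 times with 7KC added, but at 4.87 times in WD and 4.10 times with 7KC added, a ratio chosen after the values had been seen. The ratio of Fads2 to Fads1 stayed between 2.23 (WD) and 2.91 (CD). For Elovl6 to Elovl5, the elongases of the respective branches, the ratio was 0.174 without and 0.228 with 7KC on CD, and 0.0723 and 0.116 on WD. Both diets had a higher ratio with 7KC than without, and both WD libraries were below both CD libraries.

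Elovl5 (chromosome 9, 77917364 to 77984519, plus strand), the elongase between the desaturation steps, differed less between the diets than the Fads genes. It was at 467 FPKM without and 401 FPKM with 7KC on CD, and 522 and 445 FPKM on WD. The ranges of the diets overlapped with the deposited values, but under equal sums both WD libraries (739 and 746 TPM) were above both CD libraries (577 and 652 TPM). The log2 fold change between the diets was 0.16 without and 0.15 with 7KC. Scd1, with the values given above, was 1.42-fold lower in WD than in CD (-0.50, -0.51 to -0.50) and 1.42-fold lower with 7KC in both diets (-0.51, or -0.30 under equal sums).

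Of the genes that supply or make malonyl-CoA, Acss2 (chromosome 2, 155517948 to 155585724, plus strand) encodes the cytosolic enzyme that turns acetate into acetyl-CoA. It was at 50.3 FPKM without and 55.9 FPKM with 7KC on CD, and 35.9 and 39.8 FPKM on WD, and its log2 fold change was -0.49 (-0.61 to -0.37) in WD against CD and -0.49 (-0.60 to -0.39) with 7KC in both diets. Both WD libraries were below both CD libraries. Acaca (chromosome 11, 84129672 to 84401651, plus strand) encodes acetyl-CoA carboxylase 1, which provides malonyl-CoA for synthesis in the cytosol. It was at 35.7 FPKM without and 36.9 FPKM with 7KC on CD, and 25.3 and 35.5 FPKM on WD, so that the WD library was low and the other 3 were close together. The log2 fold change was -0.50 (-0.58 to -0.42) in WD against CD and -0.059 (-0.13 to 0.0077) with 7KC in both diets, or 0.15 under equal sums.

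Acacb (chromosome 5, 114146535 to 114250761, plus strand) encodes acetyl-CoA carboxylase 2 at the mitochondrial outer membrane, whose malonyl-CoA restrains the entry of fatty acids into mitochondria. It was at 16.2 FPKM without and 16.3 FPKM with 7KC on CD, and 16.6 and 19.6 FPKM on WD, with the highest value in WD+7KC. The ratio of Acaca to Acacb lay between 1.52 (WD) and 2.26 (CD+7KC). Me1 (chromosome 9, 86581371 to 86695953, minus strand), the cytosolic malic enzyme that yields NADPH, was at 205 FPKM without and 218 FPKM with 7KC on CD, and 178 and 175 FPKM on WD. With the deposited values both WD libraries were below both CD libraries by a small margin, with a log2 fold change of -0.20 without and -0.32 with 7KC in both diets. Under equal sums this order was lost, as Me1 was at 291 TPM in WD+7KC and 286 TPM in CD.

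**Figure D2:**
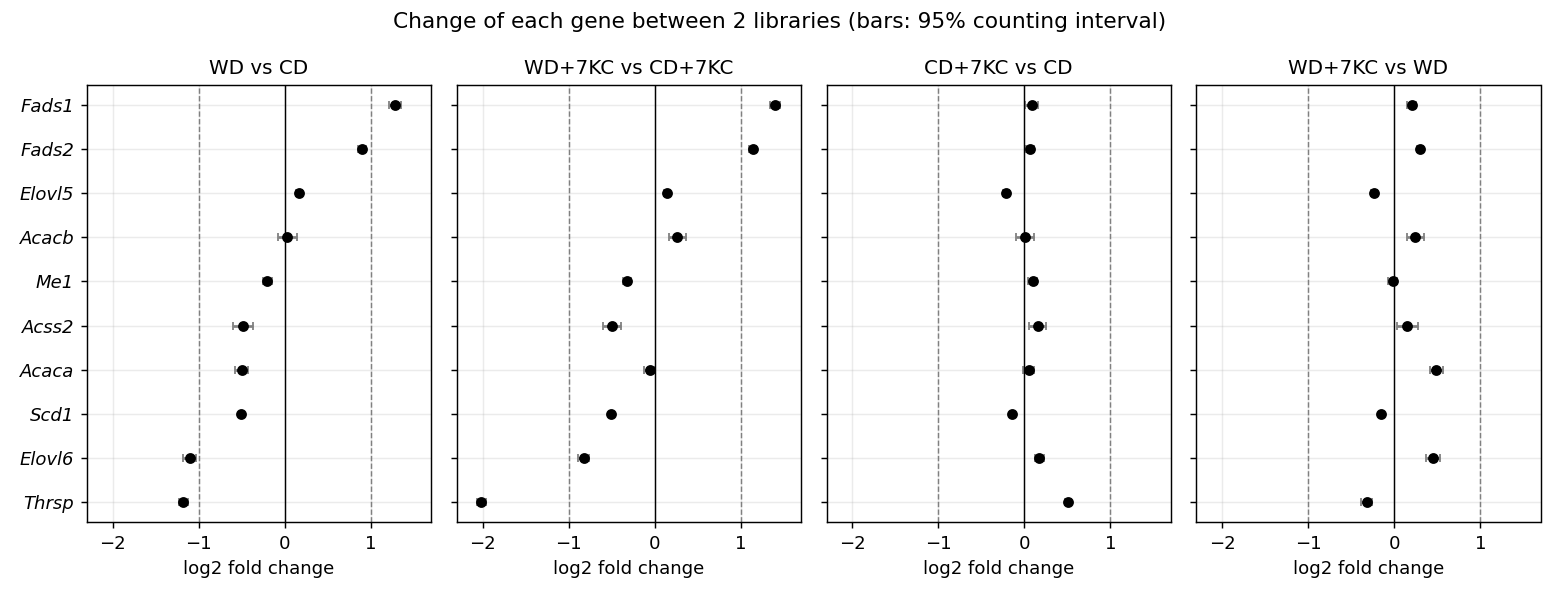
Log2 fold change of each gene in the 4 comparisons (points) with 95% counting intervals (bars) and dashed lines at 2-fold. Thrsp and Elovl6 lie at the left and Fads1 and Fads2 at the right in the panels that compare the diets, while no gene passes 2-fold in the panels that compare 7KC with no 7KC.

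The next comparison asks what the addition of 7KC did within a diet. None of the 10 genes was past 2-fold, or past 1.5-fold, with 7KC under either diet with the deposited values. Among all genes 6.75% were past 2-fold on CD and 9.00% on WD, and among genes reaching 1 FPKM the shares were 2.65% and 4.71%. Past 1.5-fold were 17.5% and 21.0% of all genes. On CD, 8 of the 10 genes were higher with 7KC and 2 lower, and their median log2 fold change was 0.073 against -0.0012 for all genes. On WD, 6 were higher and 4 lower, and the median was 0.18 against 0.0021. Under equal sums the latter became 8 higher and 2 lower, with a median of 0.39 against 0.21 for all genes, and Acaca and Elovl6 were past 1.5-fold upward. Of all 15753 genes, 11502 were then higher and 4251 lower, with 3154 past 1.5-fold upward and 772 downward. The counts of the 10 genes under equal sums were thus near those of all genes.

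Thrsp had the largest change with 7KC on CD, 1.43-fold higher (0.51, 0.48 to 0.55), whereas it was lower with 7KC on WD (-0.32, -0.38 to -0.26, or -0.11 under equal sums). The difference between these changes was -0.83 on the log2 scale, the largest among the 10 genes, and it was not tested. Acaca had the largest change with 7KC on WD, 1.40-fold higher (0.49, 0.41 to 0.57), and on CD its interval included 0 (0.048, -0.019 to 0.12). Elovl6 was next with 1.37-fold (0.45, 0.37 to 0.53) on WD and 1.13-fold (0.17, 0.12 to 0.23) on CD. Both genes had their lowest value in the WD library, which is the reference for 7KC on WD and also the library compared with CD above, so that these changes share it.

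On WD, the log2 fold change with 7KC was 0.30 (0.27 to 0.34) for Fads2, 0.24 (0.14 to 0.35) for Acacb, 0.20 (0.15 to 0.25) for Fads1 and 0.15 (0.026 to 0.27) for Acss2. On CD the same genes had 0.060, 0.0087, 0.086 and 0.15. Scd1 and Elovl5 were lower with 7KC on both diets with the deposited values. For Scd1 the change was -0.15 on CD and -0.16 on WD, the latter 0.061 under equal sums. For Elovl5 it was -0.22 on CD and -0.23 on WD, the latter -0.015 under equal sums. Me1 had 0.094 on CD and -0.019 (-0.072 to 0.034) on WD, or 0.20 under equal sums, so that with the deposited values no difference was detectable at this depth on WD.

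**Figure D3:**
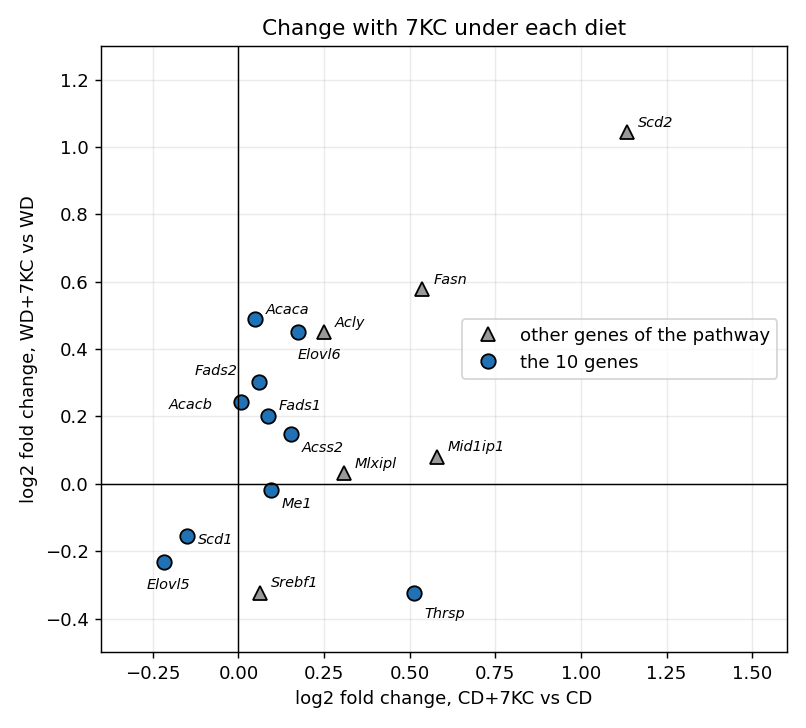
Log2 fold change with 7KC under CD (horizontal axis) and under WD (vertical axis) for the 10 genes (circles) and 6 other genes of the pathway (triangles), from different libraries for either axis. Thrsp sits at 0.51 and -0.32, Acaca at 0.048 and 0.49, and Scd2 past 1 on both axes.

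**Figure D4:**
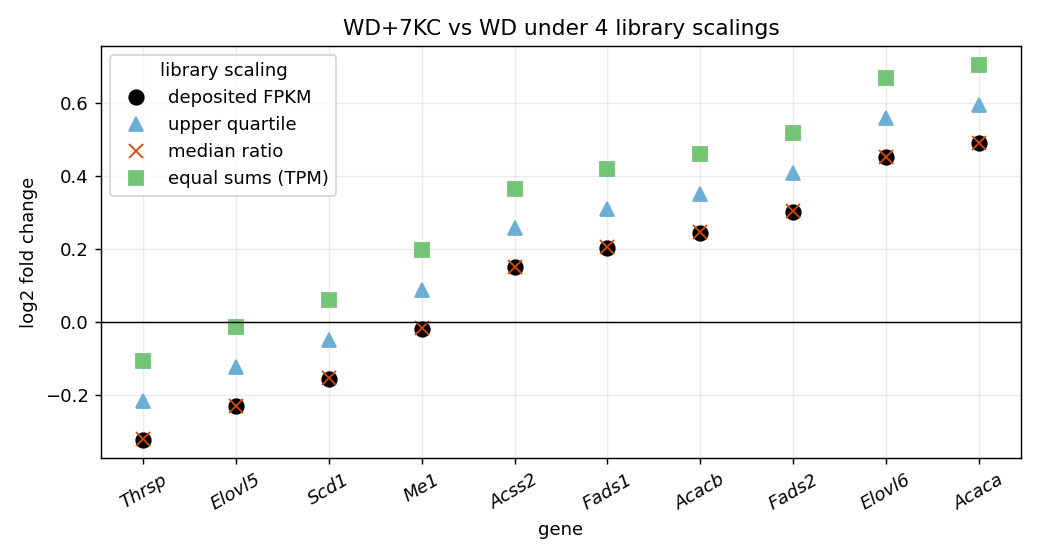
Log2 fold change of each of the 10 genes in WD+7KC compared to WD with the deposited FPKM values and after 3 other scalings. The order of the genes is the same, and Scd1 and Me1 change sign under equal sums (TPM) while Thrsp stays below 0.

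Cell type markers moved in the same libraries. Of 12 macrophage and Kupffer cell markers, 12 were higher in every comparison, and their summed level was 266 FPKM without and 403 FPKM with 7KC on CD, and 455 and 858 FPKM on WD. Of all genes, 7738 were higher and 7946 lower with 7KC on CD, and 7908 and 7845 on WD. In WD against CD, 7946 were higher and 7650 lower, and with 7KC in both diets 7988 and 7910. The 6 endothelial markers summed to 55.0 and 80.2 FPKM on CD and to 43.5 and 123 FPKM on WD. With 7KC on WD 6 of 6 were past 2-fold, where 9.00% of all genes, and 4.71% of those reaching 1 FPKM, were. All 8 hepatocyte markers were lower with 7KC on WD, and their median change was -0.41 on the log2 scale, whereas under equal sums 6 were lower and 2 higher with a median of -0.20. On CD 7 were lower and 1 higher with 7KC, with a median of -0.18. Under equal sums these became 6 lower and 2 higher with a median of -0.14. The part of the cell types in the changes of the 10 genes was not tested.

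The other genes of the pathway were taken from 8 lists, chosen with earlier results of these data known, and their counts are a description. Of all genes, 6.75% were past 2-fold with 7KC on CD and 9.00% on WD. Between the diets the shares were 9.69% without and 12.6% with 7KC in both. Of 9 other genes of fatty acid synthesis, none was past 2-fold in any comparison. Fasn, the fatty acid synthase, was higher with 7KC on both diets (0.54 on CD and 0.58 on WD) and had -0.47 in WD against CD. Acly, the citrate lyase that makes cytosolic acetyl-CoA, had 0.25 and 0.45 with 7KC and -0.77 in WD against CD. The lowest values were those of the acyl-CoA synthetases Acsl3 on CD (-0.58) and Acsl1 on WD (-0.52). The list median with 7KC was -0.14 on CD and -0.078 on WD, the latter 0.14 under equal sums.

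Among other elongases and elongation cycle enzymes, 1 of 9 genes tested was past 2-fold with 7KC on WD, against 9.00% of all genes. The gene was Elovl3, an elongase of very long saturated chains. On CD 0 of 10 were past 2-fold, against 6.75% of all genes. Elovl3 was at 54.6 FPKM without and 45.2 FPKM with 7KC on CD, and 9.71 and 4.41 FPKM on WD. Its log2 fold change was -2.48 between the diets without 7KC and -3.33 with it. With 7KC it was -0.27 on CD and -1.12 (-1.54 to -0.76) on WD, and under equal sums the latter was -0.91 and no longer past 2-fold. Elovl7 was the gene of the list past 2-fold upward in both comparisons of the diets, at 0.416 FPKM without and 0.363 FPKM with 7KC on CD, and 1.83 and 2.16 FPKM on WD. Its CD values were low and rested on an estimated 17 reads without and 15 with 7KC. Elovl2, which lengthens polyunsaturated chains, was at 107 FPKM without and 68.3 FPKM with 7KC on CD, and 157 and 122 FPKM on WD, lower with 7KC on both diets (-0.65 and -0.36) and higher in WD. Tecr, the reductase of the elongation cycle, had 0.13 with 7KC on CD and -0.16 on WD, the latter 0.060 under equal sums.

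Of 9 other desaturases and their electron donors, Scd2 was past 2-fold with 7KC on both diets. This stearoyl-CoA desaturase, known mainly from tissues other than liver, was at 3.61 FPKM without and 8.04 FPKM with 7KC on CD, and 5.55 and 11.5 FPKM on WD. The log2 fold change was 1.13 (0.91 to 1.40) on CD and 1.04 (0.86 to 1.26) on WD. On either diet the 7KC library was above the library without 7KC. The ratio of Scd1 to Scd2 was 3619 without and 1464 with 7KC on CD, and 1663 and 717 on WD. The Scd genes lie side by side on chromosome 19 and resemble each other, and how reads that match several of them were shared out is not given in the sources used here, so that low values of Scd2 beside those of Scd1 are uncertain. Scd3 also passed 2-fold with 7KC on CD (an estimated 12 and 54 reads) and is named after its values were seen. Cyb5a, the cytochrome that passes electrons to the desaturases, had -0.012 with 7KC on CD (0.028 under equal sums) and -0.46 on WD (-0.25 under equal sums).

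Of the enzymes that supply NADPH, none was past 2-fold with 7KC with the deposited values. Me2, the mitochondrial malic enzyme, had 0.80 (0.26 to 1.47) on WD, and 0.65 with an interval that includes 0 on CD, from an estimated 22 to 81 reads, and on WD it was past 2-fold under equal sums (1.01). Among those with a mean of 1 FPKM or more, the lowest log2 fold changes were those of H6pd on CD (-0.45) and Idh1 on WD (-0.31).

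Of 16 regulators, 0 were past 2-fold with 7KC on either diet. On WD 3 were higher and 13 lower with the deposited values, where 7908 of all genes were higher and 7845 lower. Under equal sums 12 were higher and 4 lower. This was near the share of all genes, of which 11502 were then higher and 4251 lower. Mlxipl, which encodes ChREBP, was at 51.0 FPKM without and 63.2 FPKM with 7KC on CD, and 22.4 and 22.9 FPKM on WD. It was the 1 regulator past 2-fold in WD against CD (-1.18, -1.31 to -1.06), and with 7KC in both diets it had -1.46. Its change with 7KC was 0.31 on CD and 0.032 on WD. Srebf1, which encodes SREBP-1, was at 77.9 FPKM without and 81.4 FPKM with 7KC on CD, and 78.0 and 62.3 FPKM on WD, so that WD+7KC was the low library. In WD against CD its log2 fold change was 0.0015 (-0.069 to 0.072), and with 7KC on WD -0.32 (-0.11 under equal sums). Among regulators with a mean of 1 FPKM or more, Nr1h2, which encodes LXRβ, had the highest log2 fold change with 7KC on CD (0.40) and Usf1 on WD (0.22). Pparg had the lowest on both (-0.27 and -0.33).

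Of the genes that control acetyl-CoA carboxylase or use malonyl-CoA, 0 of 10 were past 2-fold in any comparison. Mid1ip1, a partner of Thrsp that helps the carboxylase to polymerize, was at 14.7 FPKM without and 21.9 FPKM with 7KC on CD, and 18.4 and 19.4 FPKM on WD, with 0.58 (0.37 to 0.80) on CD and 0.080 on WD with 7KC. Prkaa1, a catalytic subunit of the kinase that inactivates the carboxylase, had the highest log2 fold change on WD (0.58). Trib3 on WD (-0.71) and Hlcs, which attaches biotin to the carboxylase, on CD (-0.48) had the lowest. In the list of carbohydrate supply and ChREBP targets 0 of 10 were past 2-fold in any comparison with the deposited values. Its extremes with 7KC were Gckr (0.30) and Txnip (-0.29) on CD, and the lowest change on WD was that of Slc2a2 (-0.30). Txnip, a ChREBP target, was at 77.1 FPKM without and 62.9 FPKM with 7KC on CD, and 43.7 and 49.2 FPKM on WD.

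Among 8 LXR targets, 1 was past 2-fold with 7KC on WD and 0 on CD, against 9.00% and 6.75% of all genes. The 1 target was Abcg1, a sterol exporter that macrophages express, at 2.07 FPKM without and 4.58 FPKM with 7KC on WD (1.11). Cyp7a1, the rate-limiting enzyme of bile acid synthesis, had the lowest change (-0.66 on CD and -0.99 on WD). Mylip was the gene with the highest value on CD (0.48). In the comparison of the diets with 7KC in both, the genes of these lists past 2-fold beside those given above were Scd3 (-2.08), Scd4 (-1.05), Fads3 (1.09), G6pdx (1.24), Me2 (1.01), Ppargc1b (-1.13) and Abcg1 (1.18), named after their values were seen. Scd4 rested on an estimated 10 reads in CD+7KC and 3 in WD+7KC, with a counting interval that includes 0. Under equal sums Scd4 and Ppargc1b (-0.94 each) were no longer past 2-fold. The median of the LXR target list with 7KC was 0.019 on CD and -0.035 on WD, the latter 0.18 under equal sums.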

How the data were processed

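Liver RNA of 4 groups of ob/ob mice (CD, CD+7KC, WD and WD+7KC, 1 library each) was analysed from deposited FPKM values, 1 per gene symbol and library. Per the labels, the methods and the submitters' processing notes, the authors made stranded mRNA libraries, sequenced 75-base single-end reads, mapped them to mm10 with TopHat2 2.0.13, Bowtie2 2.2.3 and SAMtools 0.1.19, and computed the deposited FPKM values with Cufflinks 2.2.1. The annotation and the treatment of reads that match several genes are not given in the sources used here.

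Log2 fold changes were taken from FPKM + 0.1 over every gene not at 0 in both libraries, which understates changes of low genes. With 1 library per group no test was run. Depth was judged from 13652 genes that have 1 RefSeq mRNA of 600 bases or more, with 200 bases taken off the length, by the read number that brings low values closest to whole reads. From 74.6% to 76.8% of low values lay within 0.1 of a whole read. Lengths and positions came from GENCODE vM21 (GRCm38), promoter windows from RefSeq (GRCm38.p6). The steps were run on simulated reads drawn with the same lengths and the same 200 bases taken off. That run can check the code, but not the assumed lengths or the read estimates for the real libraries.

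Named were the 10 members, Fasn, Acly, Srebf1, Mlxipl and Mid1ip1, the extremes of each pathway list with 7KC (mean level 1 FPKM or more), and the 5 genes of most similar profile (mean level 10 FPKM or more). Scd3, Scd4, Fads3, G6pdx, Ppargc1b and the markers fall outside this rule and are named for counts or levels of their lists. Gnmt, Nnmt, H2-Eb1 and Ifi27l2a also fall outside it and are named as the nearest genes to single members. Of the genes named by the rule, 1 is not reported here. The members and lists were chosen with earlier results of these data known. Alternatives were pseudocounts of 1, 0.01 and none, a filter of 1 FPKM, 4 scalings, and thresholds of 1.5-fold and 4-fold. Python 3.11.15, numpy 2.4.6, pandas 2.3.3, scipy 1.17.1 and matplotlib 3.10.9 were used. The qRT-PCR, protein, lipid and histology measurements were not analysed here.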

Additional observations from a re-analysis of the deposited data

Results flagged for a closer look

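The change with 7KC had opposite signs under the 2 diets for 8 of the 38 members and named genes. The share of all genes with opposite signs was not computed, so that this count is a description only. Of all genes, 7738 were higher and 7946 lower with 7KC on CD, and 7908 and 7845 on WD. With 1 library per group the difference between the diets was not tested. It is given as the log2 fold change in WD+7KC compared to WD minus that in CD+7KC compared to CD. Thrsp had a difference of -0.83, with 0.51 under CD and -0.32 under WD, and -0.66 under equal sums. Me1 had -0.11, with 0.094 and -0.019, and this difference became 0.063 under equal sums, where both changes were above 0 (0.13 and 0.20). Of the regulators, Nr1h2 had -0.46 (0.40 under CD and -0.060 under WD, or 0.44 and 0.16 under equal sums), Srebf1 -0.39 (0.062 and -0.32) and Usf1 0.43 (-0.21 and 0.22). With the deposited values the counting interval included 0 for Me1 and Nr1h2 under WD, for Srebf1 under CD and for Usf1 under both diets. Of the carbohydrate genes, Txnip had 0.46 (-0.29 and 0.17). Of the elongation genes, Elovl7 had 0.38 (-0.16 and 0.23, each with a counting interval that includes 0) and Tecr -0.28 (0.13 and -0.16, or 0.16 and 0.060 under equal sums). The opposite signs of Me1, Nr1h2 and Tecr are thus lost under equal sums, while those of the other 5 genes remained. Of these 5, Srebf1, Usf1 and Elovl7 had an interval that includes 0 under at least 1 diet with the deposited values.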

How the results depend on the processing

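Of 320 values of the 10 genes (4 comparisons under 8 alternatives of pseudocount, filter and scaling), 258 stayed within the 95% counting interval of the value reported and 7 changed sign. All 7 came from scaling: Scd1 and Me1 in WD+7KC compared to WD under equal sums (TPM) and under equal sums without the 20 top genes, Me1 there under upper quartile scaling, and Acaca in WD+7KC compared to CD+7KC under both kinds of equal sums. The median of the 10 genes in WD+7KC compared to WD was 0.39 under equal sums, 0.28 under upper quartile scaling and 0.35 under equal sums without the 20 top genes, in place of 0.18. In WD+7KC compared to CD+7KC it was 0.021 and 0.0068 under the 2 kinds of equal sums, in place of -0.19. The shift under both kinds of equal sums follows from the lower FPKM sum of the WD+7KC library, with or without the 20 top genes. Upper quartile scaling uses the upper quartile of the values above 0 in place of the sum. In WD+7KC compared to WD it moved log2 fold changes by 0.11, and median ratio scaling by 0.00093. The count of members past the threshold stayed at 0 with 7KC under all alternatives. In the comparisons of the diets it was 3 under every pseudocount, filter and scaling, and at a threshold of 4-fold it was 0 in WD compared to CD and 1 (Thrsp) with 7KC in both diets. Over the 10 alternatives the count of all genes past the threshold ranged from 189 to 3310 in WD+7KC compared to WD (1418 reported), from 113 to 2742 in CD+7KC compared to CD (1059), from 262 to 3778 in WD compared to CD (1511) and from 313 to 4597 in WD+7KC compared to CD+7KC (2007). The medians of the pathway lists, recomputed under the same alternatives after the data had been seen, changed sign in 37 of 256 cases. No paired analysis was possible because the labels carry no replicate numbers and each group has 1 library, and no library could be left out.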

Other observations

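Patterns over the 4 libraries were compared on the centred log2(FPKM + 0.1) scale for genes whose mean level was 10 FPKM or more. The mean profile of the 10 genes was nearly flat (0.033 without and 0.11 with 7KC on CD, and -0.13 and -0.016 on WD), as the mean joins genes that were lower and genes that were higher in WD. The nearest of 4661 other genes to it were Ptdss1, a phosphatidylserine synthase, at a Euclidean distance of 0.029, and Uap1, Tmx1, Ergic1 and Kif1c at 0.040 to 0.049. The members themselves were at 0.15 (Me1) to 1.52 (Thrsp) from their own mean. The nearest gene to Thrsp was Gnmt, the glycine N-methyltransferase of the methionine cycle, at a distance of 0.26, with 1382 FPKM without and 1534 FPKM with 7KC on CD, and 523 and 446 FPKM on WD. The nearest to Elovl6 was Nnmt, nicotinamide N-methyltransferase, at 0.12, with 97.8, 109, 49.99 and 64.1 FPKM in the same order. The nearest to Fads1 was H2-Eb1, an MHC class II chain, at 0.14, with 22.9, 23.4, 53.0 and 56.1 FPKM, and the nearest to Fads2 was the interferon-inducible Ifi27l2a at 0.051, with 15.6, 15.5, 28.6 and 34.6 FPKM. These single-gene neighbours were looked up after the values had been seen, and 4 libraries cannot show that genes vary together beyond these diets.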
